A study of Mus musculus with 8 samples.

Results

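The genes described here encode the machinery that takes a cell from rest through DNA replication to division. They were taken by symbol from a list of 42 genes. The rule uses no measured value, but the list was drawn up with earlier results of these data known. All 42 matched a row of the table of 41730 genes. By role they fall into 11 G1 regulators, 14 replication genes and 17 mitotic genes. Messenger RNA was counted by 3' end sequencing in naive CD8+ T cells of the mouse, isolated with a magnetic kit. The DMSO group was cultured for 24 h with the solvent alone, and the treated group for the same 24 h with RGX-104 at 2 µM. RGX-104 is a drug that activates the liver X receptors, nuclear receptors for oxidised cholesterol. Each group held 4 libraries, numbered 1 to 4 for DMSO and 5 to 8 for RGX-104. The labels name no strain, sex, age or stimulus, and they do not say if the 4 libraries of a treatment stem from different mice or wells. P-values are therefore relative to library-to-library spread, which could be technical alone.

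A resting cell enters the cycle when D-type cyclins bind the kinases Cdk4 and Cdk6, which phosphorylate the retinoblastoma protein and free E2F transcription factors. E2F factors then drive cyclin E and the genes that license and copy DNA, and later the cyclin A and cyclin B kinase complexes carry the cell through mitosis. Inhibitors of the Cip/Kip family, p21 (Cdkn1a) and p27 (Cdkn1b), restrain these kinases. Naive T cells are long-lived resting cells that divide rapidly once the T cell receptor and its costimulators are engaged.

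Promoter sequences from RefSeq (GRCm38.p6) were found for 35 of the 42 genes, 39 windows in all. Each window runs from 250 bases before to 50 bases after a transcription start. They were searched on both strands for 3 elements by which cell cycle genes are commonly recognised. The E2F site was spelled TTTCCCGC, TTTCGCGC, TTTGCCGC or TTTGGCGC, the cell cycle homology region TTTGAA or TTCGAA, and the CCAAT box CCAAT. An E2F site was present in 6 of 13 windows of replication genes (46.2%), 1 of 14 of mitotic genes (7.14%) and 2 of 12 of G1 regulators (16.7%), against 2.26% of all 32851 promoters. The cell cycle homology region was present in 11 of 14 windows of mitotic genes (78.6%), 2 of 13 of replication genes and 1 of 12 of G1 regulators, against 19.2% of all promoters. A CCAAT box was present in 13 of 14 windows of mitotic genes and 9 of 13 of replication genes. The share was 5 of 12 (41.7%) for G1 regulators and 37.4% for all promoters. These matches describe the letters of the windows and not binding.

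**Figure D1:**
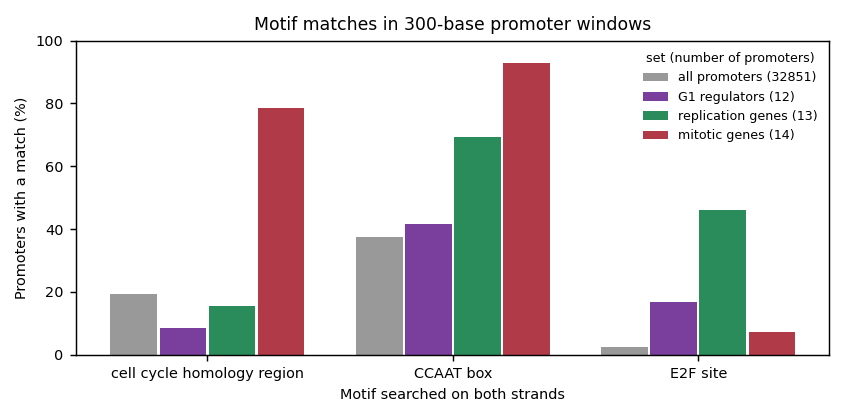
Share of 300-base promoter windows with at least 1 match (vertical axis, percent) to each of 3 motifs (horizontal axis), for all 32851 promoters and for the 3 roles. The mitotic genes have the tallest bars for the cell cycle homology region (78.6%) and the CCAAT box (92.9%), and the replication genes for the E2F site (46.2%).

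The 250 bases before the start are shown for 4 genes that span the range of levels described next, in lower case with every match in capitals. Cdkn1b (chr6:134920151-134920400, plus strand), high in these cells, has 2 CCAAT boxes and neither of the other elements. Mcm6 (chr1:128359706-128359955, minus strand), at an intermediate level, has 3 E2F matches, of which 2 overlap, and 2 CCAAT boxes. Top2a (chr11:99024190-99024439, minus strand), low but present in every library, has 4 cell cycle homology matches and 6 CCAAT boxes. Cdk1 (chr10:69352913-69353162, minus strand), near the limit of detection, has 1 E2F site, 2 cell cycle homology matches and 3 CCAAT boxes. No window was found for Ccnd2, Ccne2, Mcm4, Gins2, Ccna2, Stmn1 or Aurkb.
Cdkn1b: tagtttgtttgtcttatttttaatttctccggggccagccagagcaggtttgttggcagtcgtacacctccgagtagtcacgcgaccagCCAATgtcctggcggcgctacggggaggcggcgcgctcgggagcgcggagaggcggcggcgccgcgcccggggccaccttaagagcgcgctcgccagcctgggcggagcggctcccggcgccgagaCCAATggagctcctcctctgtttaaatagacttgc
Mcm6: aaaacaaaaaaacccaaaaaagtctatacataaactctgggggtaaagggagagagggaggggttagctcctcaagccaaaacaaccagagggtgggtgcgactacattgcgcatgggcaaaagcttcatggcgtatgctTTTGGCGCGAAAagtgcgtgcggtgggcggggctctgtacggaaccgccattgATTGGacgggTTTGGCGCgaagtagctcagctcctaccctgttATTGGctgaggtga
Top2a: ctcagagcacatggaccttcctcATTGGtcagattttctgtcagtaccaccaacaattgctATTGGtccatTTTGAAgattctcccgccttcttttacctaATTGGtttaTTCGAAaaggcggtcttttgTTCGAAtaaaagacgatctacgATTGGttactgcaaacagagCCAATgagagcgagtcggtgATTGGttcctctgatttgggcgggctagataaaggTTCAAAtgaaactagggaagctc
Cdk1: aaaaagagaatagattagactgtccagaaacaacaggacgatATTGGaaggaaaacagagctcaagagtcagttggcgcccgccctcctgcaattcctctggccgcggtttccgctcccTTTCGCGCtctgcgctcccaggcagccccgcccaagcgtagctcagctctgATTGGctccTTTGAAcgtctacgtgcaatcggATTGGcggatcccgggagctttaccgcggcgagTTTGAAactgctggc

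Libraries held 16196217 to 28287445 counts. Genes with a count numbered 9772 to 10194 in DMSO replicates 1 to 3, 10908 in DMSO replicate 4 and 10442 to 10990 in the RGX-104 libraries. Judged from the zeros among low genes, 1 apparent molecule was worth 2.90 to 5.48 CPM (counts scaled to a library total of 1000000), so values of a few CPM rest on about 1 molecule. The groups differed in this: 4.72 to 5.48 CPM in DMSO replicates 1 to 3, 3.16 CPM in DMSO replicate 4 and 2.90 to 3.99 CPM in RGX-104. The 14 genes of CD8 T cell identity summed to 4639 ± 129 CPM with DMSO and 4919 ± 231 CPM with RGX-104 (mean ± SD, n = 4 per group). Their range was 4544 to 4821 CPM with DMSO and 4738 to 5229 CPM with RGX-104. Of this list Cd2 and Cd28 had no count in any library, so a 0 in this table does not show that a transcript is absent from the cells. Summed markers of other cells reached at most 203 CPM (B cells), 241 CPM (macrophages and monocytes), 70.3 CPM (CD4 and regulatory T cells), 52.4 CPM (erythroid cells) and 11.0 CPM (natural killer cells) in any library. A count in at least 1 library was found for 8 of 8 B cell markers, 7 of 8 macrophage and monocyte markers, 6 of 6 markers of CD4 and regulatory T cells, 4 of 7 erythroid markers and 3 of 5 natural killer cell markers. Those at 0 throughout included Fcgr3, Alas2, Klf1, Ncr1 and Klra8. In such bulk samples, fewer cells of a type and less RNA per cell cannot be told apart.

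The 3 roles differed widely in level. Reads come from the 3' end whatever the length of the transcript, so CPM were compared between genes without a length correction. Total counts far exceeded the apparent molecules, so a count does not equal a transcript. The G1 regulators took 80.4% of the summed CPM of the 42 genes, the replication genes 15.9% and the mitotic genes 3.66%. Ccnd2, Cdk6 and Cdkn1b alone took 73.5%. A mean of at least 100 CPM over the 8 libraries was reached by 4 G1 regulators, 3 replication genes and no mitotic gene, and 20 to 100 CPM by 1, 5 and 2. Below 5 CPM, but with a count, lay 3 G1 regulators, 4 replication genes and 9 mitotic genes, and 2 further mitotic genes had no count. A count in all 8 libraries was found for 8 of 11 G1 regulators, 10 of 14 replication genes and 3 of 17 mitotic genes.

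**Figure D2:**
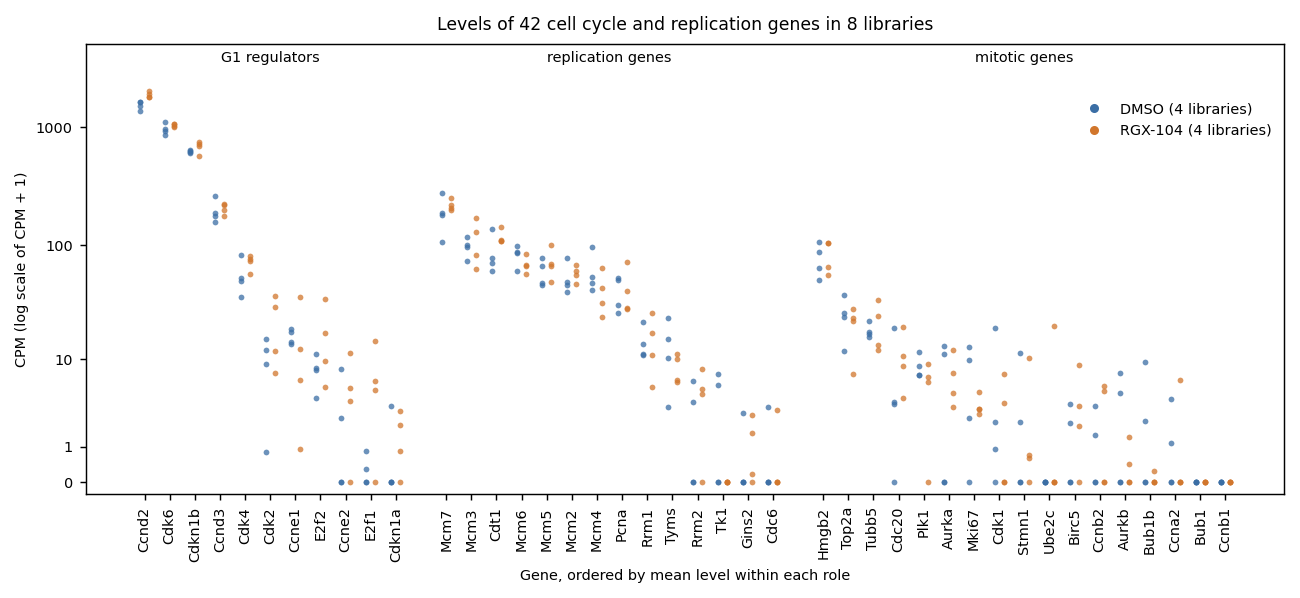
CPM of each gene in each library (vertical axis, log scale of CPM + 1), with genes ordered by mean level within their role (horizontal axis) and 4 points per group. Ccnd2, Cdk6 and Cdkn1b stand at 571 CPM or higher, the Mcm genes between 24.1 and 280.0 CPM, and 14 of 17 mitotic genes have a library at 0.

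No gene of the 42 was called between RGX-104 and DMSO. Of the 42, 33 passed the filter on low counts and were tested, 11 of each role, and 0 passed an adjusted p under 0.05 (edgeR quasi-likelihood test), where 0.11% of all 10037 genes did (0.0996% higher and 0.00996% lower). DESeq2 and limma-voom called 0 of them as well, where they called 0.329% and 0.139% of all genes. At an unadjusted p under 0.05 DESeq2 had 2 of 33 and limma-voom 1 of 33, where the shares of all genes were 6.76% and 6.65%. In edgeR 1 of 33 had such a p, Ccnd2, on the higher side, where the share of all genes was 1.98% higher and 1.82% lower. Libraries of the groups did not overlap for 1 of 33 on the higher side, again Ccnd2, and for 0 on the lower side, where the shares of all genes were 2.2% and 1.35%. These counts are near those of all genes.

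Ccnd2, cyclin D2, was the most abundant of the 42 genes and above 99.6% of all genes with a count. It stood at 1383, 1639, 1524 and 1625 CPM in the DMSO libraries and at 2020, 1785, 1895 and 1785 CPM in the RGX-104 libraries. Each RGX-104 library lay above each DMSO library, with DMSO replicate 1 lowest and RGX-104 replicate 5 highest. The means were 1543 ± 118 and 1871 ± 112 CPM (SD, n = 4 per group), a fold of 1.20 with a 95% interval of 1.05 to 1.37. On the log2 scale the fold change was 0.26 ± 0.09 (SE, edgeR unadjusted p = 0.00934, adjusted p = 1.00). It was 0.17 against DMSO replicate 4 alone, the DMSO library with the most genes detected (adjusted p = 0.904, with a range of 0.191 to 1.00 over the alternatives run). The CD8 identity genes, summed as given above, also had a higher mean in RGX-104, and markers of activated T cells summed to 53.4 to 76.0 CPM with DMSO and 63.3 to 144 CPM with RGX-104. Their part in the Ccnd2 values was not tested. Ccnd2 lies at chromosome 6, 127125162 to 127152188 (GRCm38.p6), and is protein-coding.

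Ccnd3, cyclin D3, stood at 157, 177, 264 and 186 CPM in DMSO and at 224, 217, 177 and 199 CPM in RGX-104. The ranges overlapped, and DMSO replicate 3 was the highest of the 8 libraries. The log2 fold change was 0.05 ± 0.18 (edgeR adjusted p = 1.00). Within each library Ccnd2 exceeded Ccnd3, by 5.78 to 9.24 times in DMSO and by 8.21 to 10.7 times in RGX-104. Cyclin D1 (Ccnd1), named after its values were seen, had 0.429 CPM in DMSO replicate 4, 4.17 CPM in RGX-104 replicate 5 and no count in the other 6 libraries. Ccnd3 overlaps Bysl, at a mean of 40.8 CPM.

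Cdk6 was the more abundant of the kinases that D-type cyclins bind. Its levels were 858, 933, 974 and 1105 CPM with DMSO and 1074, 1000.4, 1068 and 1013 CPM with RGX-104. The highest value was that of DMSO replicate 4, and the RGX-104 range lay within that of DMSO. The fold was 1.06 with a 95% interval of 0.911 to 1.23. Cdk4 stood at 52.7, 82.9, 36.0 and 49.4 CPM in DMSO and at 72.7, 76.4, 80.0 and 57.0 CPM in RGX-104. Its groups overlapped through DMSO replicate 2, and the fold of 1.28 had a wide interval of 0.835 to 1.96. The ratio of Cdk6 to Cdk4 was 19.2 ± 6.91 in DMSO and 14.8 ± 2.16 in RGX-104. Cdk6 lies at chromosome 5, 3341004 to 3531008, and Cdk4 at chromosome 10, 127063535 to 127067288, where it overlaps Tspan31 (10.2 CPM).

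**Figure D3:**
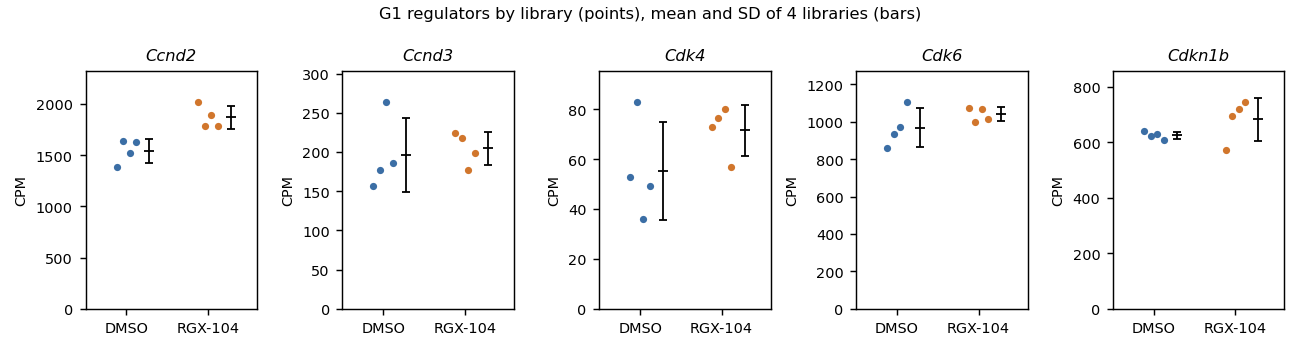
CPM of 5 G1 regulators (vertical axes from 0) in the 4 DMSO and 4 RGX-104 libraries (points), with mean and SD of each group (bars). Ccnd2 is the 1 gene whose RGX-104 points, from 1785 CPM, all lie above its DMSO points, which reach 1639 CPM.

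The inhibitors differed by a wide margin. Cdkn1b, which encodes p27, stood at 639, 622, 630 and 610 CPM in DMSO and at 571, 694, 721 and 746 CPM in RGX-104. The DMSO libraries lay close together, while RGX-104 replicate 5 was the lowest of all and the other 3 RGX-104 libraries were the highest. The log2 fold change was 0.11 ± 0.11 (edgeR adjusted p = 1.00), with a fold interval of 0.916 to 1.27. Cdkn1a, which encodes p21 and is a target of p53, had a count in 1 DMSO library and 3 RGX-104 libraries, and its highest value was 3.45 CPM. Cdkn1b lies at chromosome 6, 134920401 to 134925525, and Cdkn1a at chromosome 17, 29090979 to 29100722.

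The genes that act at the end of G1 were low. Cdk2, the partner of cyclin E and cyclin A, had 9.30 ± 6.21 CPM with DMSO and 21.3 ± 13.8 CPM with RGX-104. Cyclin E1 (Ccne1) had 16.1 ± 2.49 and 13.9 ± 15.4 CPM, and cyclin E2 (Ccne2) 2.65 ± 3.81 and 5.13 ± 4.72 CPM. Ccne2 overlaps A630034I12Rik and Ints8, both of which had higher means (17.8 and 12.2 CPM). The activator E2F genes stood at 0.286 ± 0.405 and 6.48 ± 6.14 CPM for E2f1 and at 7.89 ± 2.89 and 16.7 ± 12.9 CPM for E2f2. E2f1 had no count in DMSO replicates 1 and 2 and in RGX-104 replicate 7, and 14.8 CPM in RGX-104 replicate 5 (edgeR adjusted p = 1.00). At these levels a value rests on few apparent molecules.

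Summed over the 11 G1 regulators, the level was 3140 to 3606 CPM with DMSO and 3838 to 4061 CPM with RGX-104, without overlap. Ccnd2 held the larger part of the difference in means, 3424 ± 199 against 3934 ± 112 CPM. Without Ccnd2 the sum was 1757 to 1982 CPM with DMSO and 2041 to 2100 CPM with RGX-104. These ranges rest on library totals and not on the TMM sizes of the fit. With TMM sizes the means of all 11 were 3444 and 3912 CPM, and with DESeq2 size factors 3462 and 3890 CPM. Both differences were smaller than with library totals. No share over all genes is at hand for the overlap of a sum. No test was made of these sums.

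Among the replication genes, the subunits of the MCM helicase were present at 24.1 to 280.0 CPM in every library. The helicase is a ring of 6 related proteins, Mcm2 to Mcm7, that is loaded at origins in G1 and unwinds DNA in S phase. Its subunits summed to 540 ± 60.8 CPM with DMSO and 567 ± 44.4 CPM with RGX-104. Mcm7 was the most abundant, at 188, 106, 280.0 and 180 CPM in DMSO and at 209, 197, 218 and 253 CPM in RGX-104. The DMSO libraries held both the lowest and the highest value, so the RGX-104 range lay inside that of DMSO. Mcm7 overlaps Ap4m1, at a mean of 15.9 CPM.

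Mcm3 stood at 99.4, 97.3, 72.9 and 118 CPM in DMSO and at 62.8, 170, 81.7 and 130 CPM in RGX-104, with both extremes in RGX-104. For Mcm6 the values were 60.3, 86.5, 97.8 and 86.6 CPM with DMSO and 66.6, 68.1, 83.2 and 56.3 CPM with RGX-104. DMSO replicate 1 was low, and the other 3 DMSO libraries lay above all RGX-104 libraries. Mcm5 was measured at 45.9, 66.0, 78.4 and 47.5 CPM in DMSO and at 99.4, 66.5, 48.5 and 68.7 CPM in RGX-104, and the groups overlapped over most of their range. Mcm2 had 45.1, 77.2, 48.3 and 39.8 CPM with DMSO and 46.0, 67.4, 60.0 and 55.0 CPM with RGX-104, again with the lowest and highest value in DMSO. Mcm4 had 41.0, 97.2, 46.9 and 53.2 CPM with DMSO and 63.1, 43.2, 24.1 and 31.9 CPM with RGX-104. DMSO replicate 2 was its highest library, and RGX-104 replicates 7 and 8 its lowest.

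The 6 subunits did not share a direction. Log2 fold changes were above 0 for Mcm2 (0.10), Mcm3 (0.18), Mcm5 (0.24) and Mcm7 (0.20) and below 0 for Mcm4 (-0.57 ± 0.37) and Mcm6 (-0.29 ± 0.25), all with an edgeR adjusted p of 1.00. With a covariate for genes detected, Mcm3 and Mcm7 were at -0.11 and -0.01. Single libraries moved these values: Mcm7 was at 0.0005 without DMSO replicate 2 and 0.44 without DMSO replicate 3. Mcm5 was at 0.03 without RGX-104 replicate 5 and 0.39 without DMSO replicate 3. Mcm4 was at -0.23 without DMSO replicate 2 and -0.87 without RGX-104 replicate 5. The 95% intervals of the folds ran from 0.392 to 1.16 for Mcm4 and from 0.837 to 1.58 for Mcm7, so folds of moderate size could not be told from none. The Mcm genes lie at chromosome 6, 88883474 to 88898780 (Mcm2), chromosome 1, 20802966 to 20820312 (Mcm3), chromosome 16, 15623897 to 15637400 (Mcm4), chromosome 8, 75109468 to 75128439 (Mcm5), chromosome 1, 128331575 to 128359705 (Mcm6) and chromosome 5, 138164583 to 138172111 (Mcm7).

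Of the factors that load the helicase, Cdt1 had a count in all 8 libraries and Cdc6 in 2. Cdt1 stood at 136, 59.8, 78.3 and 70.0 CPM in DMSO and at 109, 108, 143 and 112 CPM in RGX-104. DMSO replicate 1 lay within the RGX-104 range, and the other 3 DMSO libraries lay below it. The log2 fold change was 0.44 ± 0.25 (edgeR unadjusted p = 0.104, adjusted p = 1.00). It moved to 0.74 without DMSO replicate 1 (unadjusted p = 0.00500, adjusted p = 1.00, with a range of 0.430 to 1.00 over the alternatives run), to 0.29 without DMSO replicate 2 and to 0.72 against DMSO replicate 4 alone. Cdc6 had 3.31 CPM in DMSO replicate 4, 3.09 CPM in RGX-104 replicate 6 and no count elsewhere, and was not tested. Gins2, a subunit of the GINS complex that activates the helicase, reached at most 2.83 CPM and overlaps Gse1 (78.1 CPM).

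Pcna, the sliding clamp of DNA polymerase, stood at 52.3, 49.9, 30.7 and 25.8 CPM in DMSO and at 72.4, 28.9, 28.2 and 40.7 CPM in RGX-104. The spread within each group was larger than the difference of the means, 39.7 ± 13.4 and 42.5 ± 20.7 CPM. The genes that supply deoxynucleotides were lower. Rrm1, the large subunit of ribonucleotide reductase, had 14.4 ± 5.09 and 15.0 ± 8.87 CPM, and thymidylate synthase (Tyms) 13.1 ± 8.56 and 8.44 ± 2.62 CPM. The small subunit of the reductase, Rrm2, had 2.52 ± 3.07 and 4.45 ± 3.35 CPM, with no count in 3 libraries. Thymidine kinase (Tk1) had 5.65 and 7.27 CPM in DMSO replicates 2 and 3 and no count in the other 6 libraries. For the RGX-104 libraries a count of 0 allows up to 0.106 to 0.185 CPM each (3 counts, for counting error of independent reads), and 1 apparent molecule is worth much more. Tk1 overlaps Afmid (39.0 CPM).

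**Figure D4:**
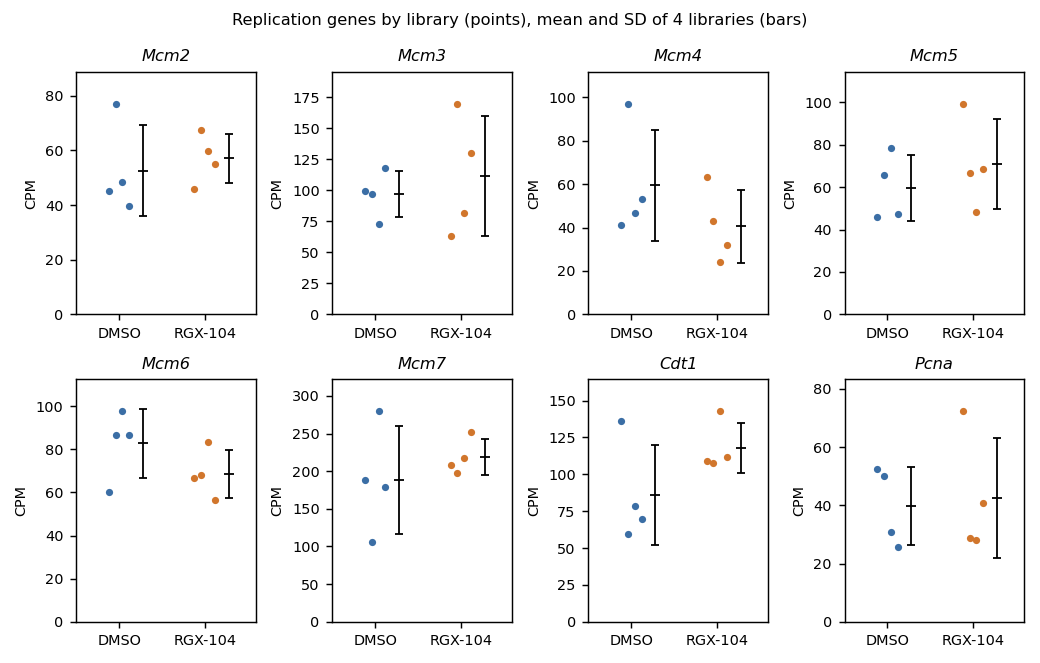
CPM of 8 replication genes (vertical axes from 0) in the 4 DMSO and 4 RGX-104 libraries (points), with mean and SD of each group (bars). The groups overlap in every panel. In the Cdt1 panel DMSO replicate 1, at 136 CPM, stands with the RGX-104 points, which lie from 108 to 143 CPM.

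Most mitotic genes were at or near the limit of detection in both groups. Cyclin B1 (Ccnb1), which with Cdk1 drives entry into mitosis, and the spindle checkpoint kinase Bub1 were at 0 throughout. If reads were independent, a 0 would allow up to 3 counts in a group, or 0.0381 CPM (DMSO) and 0.0363 CPM (RGX-104). With 1 apparent molecule worth 2.9 to 5.48 CPM in a library, these bounds are much too tight. The limit on reading a 0 given above also holds. Cdk1 itself had 19.04 CPM in DMSO replicate 2 and at most 7.30 CPM in the other libraries, with no count in 3. Mki67, whose protein Ki-67 is the usual marker of cycling cells, had 6.33 ± 6.09 CPM with DMSO and 3.50 ± 0.894 CPM with RGX-104. Cyclin A2 (Ccna2) had a count in 3 libraries and cyclin B2 (Ccnb2) in 4, at means of 1.45 and 1.93 CPM. Ccna2 overlaps Exosc9 (17.1 CPM). Ube2c, the ubiquitin-conjugating enzyme of the anaphase promoting complex, had 20.1 CPM in RGX-104 replicate 5 and no count in the other 7 libraries.

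The mitotic kinases Aurka, Aurkb and Plk1 had means of 6.48, 1.75 and 7.05 CPM. Bub1b, a checkpoint protein, had a count in 3 libraries. The whole span of Aurka overlaps that of Cstf1 (60.3 CPM), and whether the pair shares reads was not tested. Cdc20, an activator of the anaphase promoting complex, had 6.61 ± 8.52 CPM with DMSO and 10.7 ± 6.40 CPM with RGX-104 and overlaps Elovl1 (50.8 CPM). Birc5 (survivin) had 1.45 ± 1.77 and 3.54 ± 3.75 CPM, and Stmn1, which destabilises microtubules, 3.40 ± 5.41 and 2.90 ± 4.91 CPM. Among library and gene pairs, 29 of 68 had no count in DMSO and 26 of 68 in RGX-104.

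Hmgb2, Top2a and Tubb5 had a count in every library. Hmgb2, a chromatin protein that bends DNA, stood at 88.1, 106, 50.6 and 63.6 CPM in DMSO and at 64.7, 104, 104 and 55.9 CPM in RGX-104, and each group held high and low libraries. Top2a, the topoisomerase that separates sister chromatids, had 25.9, 37.2, 24.2 and 11.96 CPM with DMSO and 22.2, 7.27, 23.5 and 28.1 CPM with RGX-104. RGX-104 replicate 6 and DMSO replicate 4 were its low libraries. Tubb5, a beta-tubulin, had 18.1 ± 2.72 and 20.9 ± 10.1 CPM. Hmgb2 and Tubb5 have close paralogs with which reads may have been shared, so their values are uncertain to that extent. The 17 mitotic genes summed to 167 ± 42.2 CPM with DMSO and 169 ± 18.2 CPM with RGX-104, and Hmgb2 was the largest contributor to both.

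Over the 15 genes with a mean of at least 20 CPM, 12 log2 fold changes were above 0 and 3 below, with a median of 0.10. Over all 6171 genes at that level 50.7% were above 0, with a median of 0.01. The count above 0 was between 9 and 12 of 15 under the 17 other settings, and it was 9 without DMSO replicate 4. By role, 5 of 5 G1 regulators, 6 of 8 replication genes and 1 of 2 mitotic genes were above 0. This share was not tested. DMSO replicates 1 to 3 had the fewest genes detected, and the part of this in the directions was not tested.

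**Figure D5:**
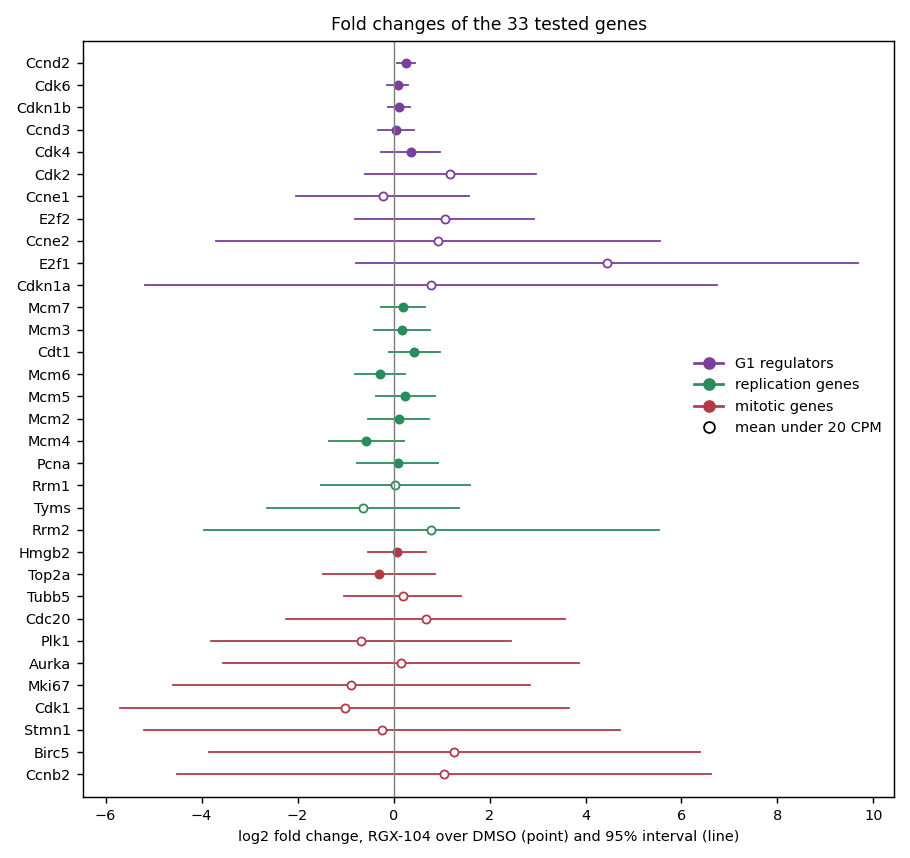
Log2 fold change of RGX-104 over DMSO (horizontal axis, points) with its 95% interval (lines) for the 33 tested genes (vertical axis), coloured by role, open where the mean is under 20 CPM. The interval of Ccnd2 (0.07 to 0.45) lies above 0 before adjustment, and the intervals of low genes such as Cdk1 span several log2 units to either side.

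A wider list of 150 genes of the same processes was read in the same way. Of these 113 were tested and 0 were called by edgeR, DESeq2 or limma-voom, with 4 higher and 0 lower at an unadjusted p under 0.05 in edgeR (1.98% and 1.82% of all genes). In either direction DESeq2 had 8 and limma-voom 6 of 113 at that p (6.76% and 6.65% of all genes). Groups did not overlap for 5 of 113 on the higher side and 0 on the lower side (2.2% and 1.35% of all genes). Of the 5, Lin54 (11.0 ± 5.78 and 21.6 ± 3.36 CPM) and Ckap2 (0.337 ± 0.674 and 8.24 ± 5.16 CPM) did not reach that p and are named after their values were seen. Of 40 tested replication genes beyond the members, 30 had a log2 fold change above 0 and 10 below (median 0.21). Of 20 other G1 regulators there were 10 and 10, of 27 other mitotic genes 17 and 10, and of 14 subunits and regulators of the anaphase promoting complex 7 and 7. Over all 10037 genes 5104 were above 0, with a median of 0.01. Unlike the count for the members, these directions took in tested genes of any level, without the floor of 20 CPM. That mean was reached by 18 of the other replication genes, 7 of the other G1 regulators, 16 of the other mitotic genes and 11 of the anaphase promoting complex. The shares above 0 were not tested. The part in them of the fewer genes detected in DMSO replicates 1 to 3 was not tested either.

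The 4 genes at that p were E2f4, Pold1, Pole and Bbc3. E2f4, an E2F protein that acts mainly as a repressor in resting cells, stood at 45.6, 58.9, 47.8 and 57.1 CPM in DMSO and at 88.7, 78.7, 96.7 and 59.5 CPM in RGX-104. The groups did not overlap, by a gap between DMSO replicate 2 and RGX-104 replicate 8 of less than 1 apparent molecule (log2 fold change 0.61 ± 0.26, edgeR unadjusted p = 0.0328, adjusted p = 1.00). Pold1, the catalytic subunit of DNA polymerase delta, had 16.5, 30.8, 29.1 and 25.7 CPM with DMSO and 22.1, 60.4, 66.1 and 63.4 CPM with RGX-104. RGX-104 replicate 5 lay among the DMSO libraries, and the other 3 lay well above them (1.04 ± 0.41, adjusted p = 1.00). Pole, the catalytic subunit of DNA polymerase epsilon, had no count in DMSO replicates 1 to 3 and 1.17 CPM in DMSO replicate 4. Its RGX-104 libraries held 3.32, 12.1, 10.7 and 10.2 CPM (edgeR adjusted p = 1.00). Ckap2 also had no count in DMSO replicates 1 to 3. Those libraries held the fewest apparent molecules, 182352 to 211967, against 316834 in DMSO replicate 4 and 250375 to 344257 in RGX-104. The part of this in the Pole and Ckap2 values was not tested.

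Of the abundant genes in these lists, Rpa1, which coats single-stranded DNA, had 218 ± 51.3 CPM with DMSO and 258 ± 35.3 CPM with RGX-104. Rfc1, of the clamp loader, had 112 ± 23.2 and 115 ± 34.8 CPM. Dnmt1, which copies DNA methylation onto new strands, had 86.0 ± 24.3 and 76.8 ± 16.7 CPM. For all of these the difference was smaller than the larger SD. Smc4, a condensin subunit, had 435 ± 73.4 and 381 ± 12.1 CPM. The tubulin Tuba1b had 310 ± 36.8 and 368 ± 44.0 CPM. The pocket protein Rbl2, a partner of E2F4 in resting cells, had 77.7 ± 22.0 and 96.2 ± 31.9 CPM. Cdkn2d, the inhibitor p19 of Cdk4 and Cdk6, had nearly equal means of 70.0 ± 27.6 and 71.6 ± 12.01 CPM. Anapc5 led the anaphase promoting complex at 180 ± 31.9 and 194 ± 31.1 CPM. None of these passed (edgeR adjusted p = 1.00 for each).

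Targets of p53 were read beside Cdkn1a. Of 16 listed genes 12 were tested, 7 above 0 and 5 below, where 50.9% of all genes were above 0. None was called by edgeR (0.11% of all genes), and 1 was higher at an unadjusted p under 0.05 (1.98% of all genes). Groups did not overlap for 1 of 12, on the higher side (2.2% of all genes). Bbc3, which encodes the death-promoting protein PUMA, stood at 72.3, 28.7, 22.2 and 58.7 CPM in DMSO and at 74.2, 86.9, 88.4 and 76.2 CPM in RGX-104. The groups did not overlap, with DMSO replicate 1 just below RGX-104 replicate 5 (log2 fold change 0.82 ± 0.34, edgeR unadjusted p = 0.0283, adjusted p = 1.00). Btg2, an antiproliferative gene, had 329 ± 13.8 and 306 ± 50.7 CPM, and Mdm2, which degrades p53, 71.3 ± 26.6 and 87.0 ± 11.4 CPM. Neither passed.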

How the data were processed

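Transcripts were counted in 8 libraries of naive mouse CD8+ T cells, 4 with DMSO and 4 with 2 µM RGX-104, grouped by the labels. The deposited values are raw counts per gene symbol, judged from whole numbers with unequal sums. Per the labels' protocols, a QuantSeq 3' kit was used. The submitters' processing notes list STAR 2.7.8a, R 4.1.0, DESeq2 1.4 and the GRCm38 build, with no roles. Which tool counted reads, with which annotation, strand setting or molecular identifiers, is not given in the sources used here, and overlapping genes may share reads. Overlaps were read from whole gene spans, whatever the strand or the place of the 3' ends. RefSeq's gene table for GRCm38.p6 held 39351 of the 41730 symbols and gave coordinates (1-based).

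All genes were fitted together with edgeR 4.0.16 under R 4.3.3, by its quasi-likelihood test with TMM normalization and filterByExpr with a minimum count of 10, which kept 10037 genes. Benjamini-Hochberg adjustment ran over all of them, with calls made below an adjusted p of 0.05. Standard errors were taken from each gene's F statistic and log2 fold change, and 95% intervals rest on them. CPM were computed here from the deposited counts and each library's total. Apparent molecules were estimated from the zeros among genes of 2 to 20 CPM in the other 7 libraries. The fit was tested on simulated data with large changes in the more abundant genes only, which does not cover small changes or low genes.

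The members and gene lists were chosen with earlier results of these data known. Values in every library are given for members with a mean of at least 20 CPM or an unadjusted p under 0.05, and from the wider lists for genes at that p. The 3 most abundant genes of each wider list may be named. Alternatives were other normalizations and filters, DESeq2 1.42.0, limma-voom (limma 3.58.1), a robust dispersion, a covariate, and leaving out each library. The comparison with DMSO replicate 4 alone was chosen after seeing the data.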

Additional observations from a re-analysis of the deposited data

Results flagged for a closer look

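Each group of 4 libraries was examined for a library far from the other 3, for the 42 genes and the 3 sums by role, where the group was not at 0 throughout. Of 84 such groups 10 had one, where chance gives about 1 in 20, or 4.2, and most of the 10 are genes with counts in few libraries. Groups otherwise at 0 were flagged at values as low as 0.238 CPM, so that rate may not hold for them. Cdt1 stood at 143 CPM in RGX-104 replicate 7, against 108 to 112 CPM in the other RGX-104 libraries. DMSO replicate 2 held 19.04 CPM of Cdk1, with 0 to 2.22 CPM in its group's other libraries. Ube2c stood at 20.1 CPM and Stmn1 at 10.3 CPM in RGX-104 replicate 5, against 0 and at most 0.713 CPM in the other RGX-104 libraries. In genes otherwise at 0 in their group, Cdkn1a stood at 3.45 CPM in DMSO replicate 3, Cdc6 at 3.31 CPM in DMSO replicate 4 and at 3.09 CPM in RGX-104 replicate 6, Gins2 at 2.83 CPM in DMSO replicate 1, Ccna2 at 6.36 CPM in RGX-104 replicate 7 and Bub1b at 0.238 CPM in RGX-104 replicate 8.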

How the results depend on the processing

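Members and genes of the wider lists had 0 calls under each of the 17 alternatives run. The number of all genes called was 11 in the edgeR test, 33 in DESeq2, 7 with a covariate for genes detected and 8 to 14 when 1 library was left out. With 1 library left out, the difference in summed CPM (RGX-104 minus DMSO) was 415 to 571 for the G1 regulators, 38.6 to 83.0 for the replication genes and -15.9 to 18.3 for the mitotic genes. The log2 fold changes of the 15 more abundant members kept their direction in 236 of 255 comparisons with an alternative, and 7 members kept it in each. With the covariate, Cdk6 was at -0.020, Mcm3 at -0.113, Mcm7 at -0.011 and Top2a at 0.32. Against DMSO replicate 4 alone, a comparison chosen after seeing the data that assumes this lone library varies like the others, Cdk6 was at -0.12, Mcm3 at -0.13 and Top2a at 0.73. With 1 library left out, Ccnd3 ran from -0.048 to 0.211, Mcm2 from -0.0084 to 0.337, Mcm3 from -0.108 to 0.370, Pcna from -0.305 to 0.249 and Hmgb2 from -0.090 to 0.255. Without a change of sign, Mcm4 ran from -0.869 to -0.235, Mcm5 from 0.025 to 0.393, Mcm7 from 0.0005 to 0.445, Top2a from -0.536 to -0.031, Cdk4 from 0.191 to 0.609, Cdk6 from 0.030 to 0.160, Cdkn1b from 0.063 to 0.182 and Cdt1 from 0.287 to 0.744. The cause was not tested. No paired analysis was possible because library numbers are not shared between the groups. The low genes are limited by the number of apparent molecules (182352 to 344257 per library), which did not follow the total counts. Values of a few CPM rest on about 1 such molecule.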
